A study of Arabidopsis thaliana with 12 samples.

Results

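The nuclear genes for the light-harvesting antenna and for the subunits of photosystem I (PSI) and photosystem II (PSII) of Arabidopsis thaliana were followed in leaves treated with the stress hormone abscisic acid (ABA). They were defined by locus number. There were 43 of them among the 32678 genes of the count table, and all 43 had enough reads to be tested. The antenna is represented by 20 genes (14 LHCB genes of the PSII antenna and 6 LHCA genes of the PSI antenna), PSI by 12 genes and PSII by 11 genes. Plants were wild-type Col-0, 4 to 5 weeks of age. Their leaves received a spray of 500 µM ABA or a mock spray, each with 0.5% ethanol and Tween20, and leaf 7 (L7, old) and leaf 12 (L12, young) were taken 48 h later. Polyadenylated RNA of these 4 groups (mock-treated L7, ABA-treated L7, mock-treated L12 and ABA-treated L12) was sequenced in 3 replicates each, giving 12 libraries, and the experiment was done 3 times. Whole leaves were used, so fewer cells of a type and less RNA per cell cannot be told apart.

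In the thylakoid membrane, antenna proteins bind chlorophyll and pass the absorbed light energy to the reaction centres. PSII uses it to oxidise water, and PSI uses it to reduce ferredoxin. The reaction centre cores are encoded in the chloroplast, whereas nearly all antenna proteins and many peripheral subunits are encoded in the nucleus, translated in the cytosol and imported. Transcripts of these genes are among the most abundant in green leaves and are known to fall under stress and in darkness.

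Libraries held between 11811137 and 21485394 counts on genes. Values are given below as TMM-normalised CPM (counts scaled to a common library size), in the order of replicates 1, 2 and 3. TMM factors lay between 0.612 and 1.302. Short and long transcripts were not recovered alike in all libraries. Genes within a library are not independent, so what follows is a description. The correlation across genes of transcript length with the difference between a library and its group mean was between -0.564 and -0.394 in the 4 libraries of replicate 3 and between 0.0196 and 0.577 in the other 8. The 43 genes have short transcripts, with a median length of 1203 bases against 1758 bases for all genes tested. In 3 of the 4 libraries of replicate 3 their median deviation from the group mean was between 0.567 and 0.717 on the log2 scale, and in replicate 3 of ABA-treated L12 it was -0.0112. A fit with offsets for transcript length and GC content was run as an alternative. Among the genes listed for other organs, RHD6 and PLT2 of roots were at 0 in all 12 libraries, and PLT1 and COBL9 were at 0 or 1. SCR, also listed for roots, had between 73 and 353 counts in every library. As the other root genes were at 0 or 1, SCR is not read here as a mark of root RNA. No library had more than 36 counts of the floral genes AG, AP1, AP3 and SEP3.

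The LHCB1 genes are close copies, which matters for their values because reads that mapped to more than 1 place were not counted. The last 60 coding bases of the 5 copies, including the stop codon, are shown here because they let a reader see how alike the copies are. They were read from the TAIR10.1 reference, 5′ to 3′ on the coding strand, and capitals mark bases that differ from LHCB1.3.
LHCB1.1: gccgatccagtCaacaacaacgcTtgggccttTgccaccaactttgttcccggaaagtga
LHCB1.2: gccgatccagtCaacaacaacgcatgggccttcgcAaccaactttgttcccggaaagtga
LHCB1.3: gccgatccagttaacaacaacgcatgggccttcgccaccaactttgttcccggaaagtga
LHCB1.4: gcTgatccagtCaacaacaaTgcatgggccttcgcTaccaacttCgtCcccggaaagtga
LHCB1.5: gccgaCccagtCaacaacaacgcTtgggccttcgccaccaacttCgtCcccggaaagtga
LHCB1.1 and LHCB1.2 differed from LHCB1.3 at 3 and 2 of these 60 positions, and at 31 and 29 of 804 positions over the whole coding sequence. LHCB1.4 and LHCB1.5, which lie side by side on chromosome 2, differed at 6 and 5 of the 60. Of all 50-base windows of the LHCB1.1 transcript, 20.5% also occur in another gene, and for LHCB2.1 and LHCB2.2, which share theirs with each other, the shares were 22.7% and 28.2%. For LHCB2.3, LHCB3, LHCB4.3, LHCB5 and LHCB6 the share was 0%. For LHCA2 it was 10.8%, with windows shared with AT5G28450. Levels of the LHCB1 copies, LHCB2.1, LHCB2.2 and LHCA2 are therefore uncertain.

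The 43 genes took up a large part of each leaf transcriptome, and this part was smaller after ABA in both leaves. In replicates 1, 2 and 3 they held 26.6%, 26.4% and 34.4% of the gene counts of mock-treated L7 and 15.0%, 13.9% and 17.2% of those of ABA-treated L7. In L12 the shares were 24.9%, 18.9% and 31.1% with mock and 16.7%, 15.2% and 15.0% with ABA. The mock and ABA libraries did not overlap in either leaf, though the lowest mock library of L12 (replicate 2) was close to the highest ABA library. The mean share was 29.1% ± 4.51 (SD, n = 3) with mock and 15.4% ± 1.66 with ABA in L7, and 24.9% ± 6.14 and 15.7% ± 0.922 in L12. A comparison of 3 against 3 libraries cannot give a two-sided exact permutation p below 0.1. The antenna genes made up most of this share, with 19.3% ± 2.95 of the counts in mock-treated L7 and 9.46% ± 0.59 in ABA-treated L7. By length-corrected level (TPM, transcripts scaled by length, mean of 12 libraries) 29 of the 43 were among the 50 most abundant genes and 39 among the 100 most abundant. LHCB1.3 was first of all genes (35060 TPM), LHCB1.5 was next (rank 2, 25850 TPM), and PSBR, a small PSII subunit, had rank 5 (12060 TPM). LHCB4.3 (21.3 TPM, rank 5698), LHCA6 (178 TPM) and LHCA5 (284 TPM) were the least abundant members.

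**Figure D1:**
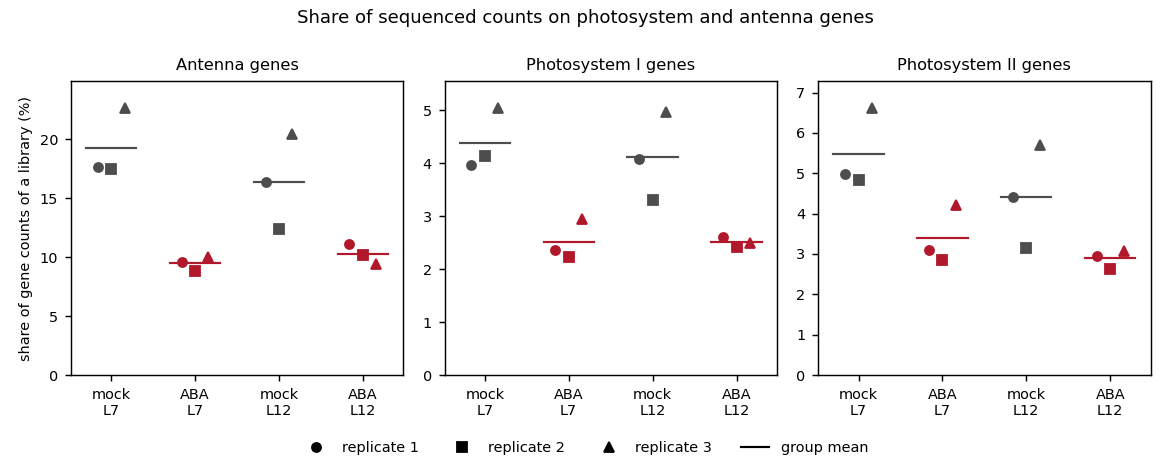
Share of the gene counts of each library (y axis, percent, from 0) held by the antenna, photosystem I and photosystem II genes in the 4 groups; points are libraries with the shape giving the replicate number, and lines are group means. In L7 the antenna share was between 17.5% and 22.7% with mock and between 8.83% and 10.0% with ABA.

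Whether ABA changed these genes in old leaves was tested with edgeR's quasi-likelihood test on all 18291 expressed genes, with the replicate number as a block and Benjamini-Hochberg adjustment. All 43 genes were lower in ABA-treated L7, with a median log2 fold change of -1.28 against 0.03 for all genes tested. A gene was called when its adjusted p was below 0.01 and its log2 fold change beyond 1. By this rule 12 of the 43 fell, against 2.00% of all genes tested called lower. With adjusted p below 0.05 and no fold limit, 40 of the 43 fell, against 6.63% of all genes. The exceptions were LHCA5, PSBO2 and PSBS. In 34 of the 43 the 3 ABA libraries were all below the 3 mock libraries, against 9.59% of all genes. Of the 12 called genes, 11 encode proteins of the PSII antenna, out of 14 such genes, and the other was PSAN. The count of 12 rested on the block and on single libraries. It was 2 without the replicate block, 1 and 2 without the 4 libraries of replicate 1 or 2, 0 without the 4 libraries of replicate 3 (where 42 of 43 had an unadjusted p below 0.05, with edgeR) and 18 with offsets for transcript length and GC content. It was 7, 5 and 2 without replicate 1, 2 or 3 of mock-treated L7, 4, 3 and 1 without those of ABA-treated L7, 6 and 21 without replicate 1 or 2 of mock-treated L12, and 7, 7 and 30 without replicate 1, 2 or 3 of ABA-treated L12. The count of 40 became 6 without the replicate block, 6, 10 and 10 without replicate 1, 2 or 3, 18 and 12 without replicate 2 or 3 of mock-treated L7, and 11, 14 and 16 without replicate 1, 2 or 3 of ABA-treated L7.

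LHCB1, LHCB2 and LHCB3 form the trimers of LHCII, the major antenna of PSII, and the 2 largest responses of all lay here. LHCB1.4 (AT2G34430, chromosome 2, 14524607 to 14525918 on TAIR10.1) stood at 10140, 14230 and 19330 CPM in mock-treated L7 and at 870.3, 860.3 and 526 CPM in ABA-treated L7. Each ABA library was more than 10 times below the mock library of the same replicate number. Its log2 fold change was -4.24 (SE 0.489, adjusted p = 0.00129 with edgeR), a level 18.9 times lower. LHCB2.3 (AT3G27690) stood at 1110, 1142 and 2040 CPM with mock and at 232, 75.2 and 87.4 CPM with ABA in L7, a log2 fold change of -3.57 (SE 0.457, adjusted p = 0.00204, edgeR). The groups were far apart, and replicate 1 of ABA-treated L7 was the highest of the ABA libraries. LHCB2.1 (AT2G05100) and LHCB2.2 (AT2G05070) fell with log2 fold changes of -2.76 and -2.39, and LHCB1.1 (AT1G29920) and LHCB3 (AT5G54270) with -2.40 and -2.05. LHCB1.1 was at 8319, 9127 and 18850 CPM with mock and 3260, 1454 and 2189 CPM with ABA. LHCB2.1 was at 5609, 3891 and 11430 CPM with mock and 1277, 413 and 1549 CPM with ABA. LHCB2.2 was at 3380, 3175 and 6054 CPM with mock and 1057, 487 and 913 CPM with ABA. In all 3 the groups stood apart. LHCB3 was at 14080, 13060 and 27150 CPM with mock and 4303, 3033 and 5486 CPM with ABA. It had no overlap either. LHCB1.3, LHCB1.5 and LHCB1.2, the most abundant LHCB1 copies, had the smallest fold changes within LHCB1. LHCB1.3 (AT1G29930) went from 36580, 52900 and 84810 CPM to 18800, 23000 and 32200 CPM, without overlap, with a log2 fold change of -1.20 (SE 0.316, adjusted p = 0.0355 with edgeR). LHCB1.5 (AT2G34420) went from 28500, 35300 and 63430 CPM to 12030, 12930 and 22480 CPM, a log2 fold change of -1.41. LHCB1.2 had -1.25 on the same scale. None of these last 3 was called, and all 3 had an adjusted p below 0.05 (edgeR). The annotation places genes on the opposite strand across part of 16 of the 43 genes (LHCB1.3, LHCB1.5, LHCB2.3, LHCB3, LHCB4.2, LHCB6, LHCA4, LHCA5, PSAE1, PSAE2, PSAG, PSAH1, PSAH2, PSAN, PSBP1 and PSBR). PSAD2 and PSBP1 also overlap a gene on the same strand. How strand and overlaps were handled in counting is not stated in the paper or labels.

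The minor antenna proteins LHCB4 (CP29), LHCB5 (CP26) and LHCB6 (CP24) link the trimers to the PSII core, and all of their genes fell in L7. LHCB4.3 (AT2G40100), the least abundant copy of LHCB4, stood at 34.9, 33.7 and 60.6 CPM with mock and at 3.64, 4.21 and 4.17 CPM with ABA, which is 74, 94 and 47 counts in the 3 ABA libraries. The ABA libraries were close together and far below the mock libraries (log2 fold change -3.36, SE 0.31, adjusted p = 0.000611 with edgeR, the smallest of the 43). LHCB4.1, LHCB4.2, LHCB5 and LHCB6 had log2 fold changes of -1.60, -1.75, -1.38 and -1.58 and were all called. LHCB4.1 was at 6935, 9631 and 13100 CPM with mock and 2427, 2564 and 5088 CPM with ABA. LHCB4.2 was at 5388, 5864 and 11770 CPM with mock and 1935, 1736 and 2974 CPM with ABA. The most abundant CP29 gene was LHCB4.1. LHCB5 was at 11110, 12900 and 15930 CPM with mock and 4948, 4463 and 6023 CPM with ABA. LHCB6 was at 6409, 6800 and 13780 CPM with mock and 2410, 2211 and 4360 CPM with ABA. Mock and ABA libraries did not overlap in any of these 4. The PSI antenna genes had smaller fold changes. LHCA4 (AT3G47470), its most abundant gene, went from 12220, 13770 and 18510 CPM to 6780, 5895 and 7644 CPM, without overlap, with a log2 fold change of -1.12. LHCA1 (AT3G54890) had the largest response of the 6 (-1.20, from 6819, 9693 and 12400 CPM to 3669, 3530 and 5384 CPM). LHCA5 (AT1G45474), which with LHCA6 links PSI to the NAD(P)H dehydrogenase complex, had the smallest, -0.64 with an adjusted p of 0.0919 (edgeR), and its libraries overlapped (247, 310.0 and 410.1 CPM with mock, 176, 160 and 298 CPM with ABA). With offsets for transcript length and GC content its value was -0.30. None of the 6 LHCA genes was called, and 5 had an adjusted p below 0.05.

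In PSI, the subunits PSAD and PSAE form the docking site for ferredoxin, PSAF and PSAN lie at the plastocyanin side, and PSAG, PSAH, PSAK, PSAL and PSAO sit where antenna proteins attach. All 12 genes were lower in ABA-treated L7 with an adjusted p below 0.05, between -0.97 (PSAD1) and -1.79 (PSAN) on the log2 scale. PSAN (AT5G64040) stood at 3895, 3887 and 8039 CPM with mock and at 1201, 944 and 2606 CPM with ABA, so that the groups did not overlap. It was the only PSI gene called (SE 0.305, adjusted p = 0.00624 with edgeR). PSAD1 (AT4G02770), at 2617, 2677 and 3376 CPM with mock and 1332, 1324 and 1796 CPM with ABA, was the least changed. PSAL (AT4G12800) and PSAO (AT1G08380), the most abundant genes of PSI, had log2 fold changes of -1.3 and -1.10. PSAL went from 7780, 10340 and 16880 CPM to 3518, 3697 and 7139 CPM, and PSAO from 4602, 6985 and 9397 CPM to 2601, 2724 and 4530 CPM. In both, the highest ABA library was replicate 3 and the lowest mock library was replicate 1, and these stood just apart. With offsets for transcript length and GC content, PSAE2 (AT2G20260) moved from -1.25 to -0.78.

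In PSII, PSBO, PSBP and PSBQ are the extrinsic proteins of the oxygen-evolving complex, PSBR stabilises them, PSBW, PSBX, PSBY and PSBTN are small subunits, and PSBS senses lumen acidity and sets off the release of excess energy as heat. Of the 11 genes 9 had an adjusted p below 0.05 and none was called (edgeR). PSBS (AT1G44575) stood apart from all other members. It was at 1370, 2146 and 2682 CPM with mock and at 1547, 1309 and 2955 CPM with ABA in L7, higher with ABA in 2 of the 3 replicates, with a log2 fold change of -0.16 (SE 0.281, adjusted p = 0.732 with edgeR). Its direction changed in single alternatives: it was 0.31 with scaling by library size only, 0.16 without replicate 2 and 0.15 without replicate 2 of mock-treated L7. PSBTN (AT3G21055) had the largest response of the PSII genes, from 1971, 2827 and 5499 CPM to 892, 861 and 2180 CPM (-1.42, adjusted p = 0.0172, edgeR), and its groups overlapped. PSBR (AT1G79040), the most abundant, went from 9769, 11650 and 25740 CPM to 4170, 4516 and 11090 CPM, with replicate 3 high in both groups, and PSBO1 (AT5G66570) from 10290, 12510 and 20870 CPM to 5222, 5252 and 10010 CPM. Their log2 fold changes were -1.27 and -1.10.

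By complex, the median log2 fold change in L7 was -1.90 for the PSII antenna, -1.13 for the PSI antenna, -1.27 for PSI and -1.20 for PSII. Within each library, which no scaling between libraries can alter, the mean log2 CPM of the antenna genes exceeded that of the PSII genes by 0.12 to 0.25 in mock-treated L7 and was below it by 0.32 to 0.91 in ABA-treated L7. Against the PSI genes the difference was 0.38 to 0.50 with mock and between -0.36 and 0.11 with ABA. In L12 the antenna genes exceeded the PSII genes by 0.16 to 0.27 with mock, and the difference was between -0.24 and 0.09 with ABA. These are descriptions with no test, in which mock and ABA libraries did not overlap in either leaf. Unequal recovery of short and long transcripts is not removed by comparing sets within a library. The median transcript length was 1288.5 bases for the antenna, 887.5 for PSI and 1155 for PSII. Whether length had a part in these differences was not tested. The difference between antenna and PSI genes in L12 overlapped between mock and ABA (0.32 to 0.43 with mock, 0.13 to 0.37 with ABA).

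**Figure D2:**
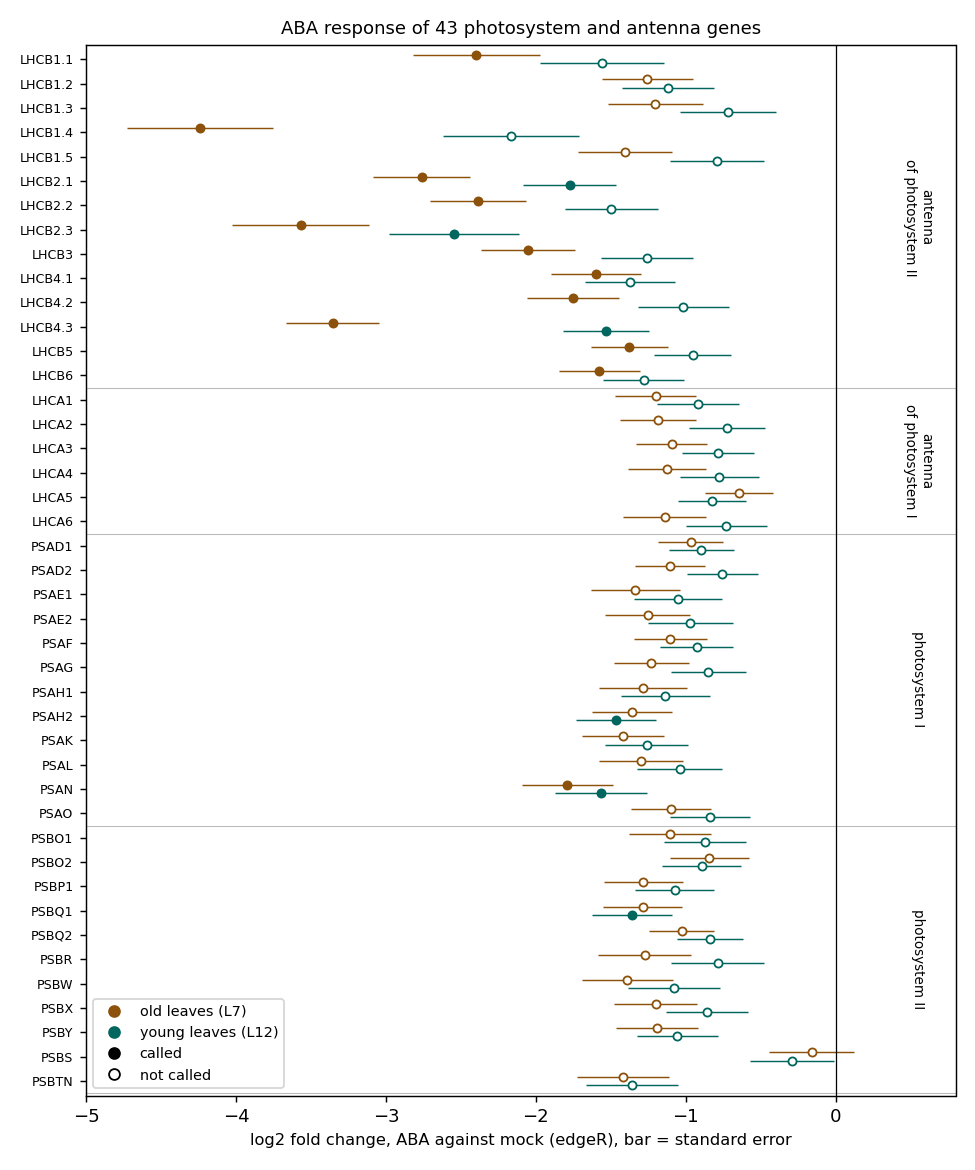
Log2 fold change between ABA and mock (x axis) of each of the 43 genes in old and young leaves; bars are standard errors of the edgeR fit and filled points are called genes. All points lie below 0, from -4.24 (LHCB1.4 in L7) to -0.16 (PSBS in L7).

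In young leaves all 43 genes were again lower after ABA, with smaller fold changes and more spread between replicates. The median log2 fold change was -1.01 against 0.03 for all genes tested. Of the 43, 6 were called lower against 3.08% of all genes: LHCB2.1 (-1.78), LHCB2.3 (-2.55), LHCB4.3 (-1.53), PSAH2 (-1.46), PSAN (-1.57) and PSBQ1 (-1.36). LHCB2.1, LHCB2.3, LHCB4.3 and PSAN were called in both leaves. With adjusted p below 0.05, 31 of 43 fell against 9.26% of all genes, and in 39 of 43 the groups did not overlap, against 16.9% of all genes. LHCB2.3 was at 1459, 943 and 2516 CPM in mock-treated L12 and at 451, 167 and 244 CPM in ABA-treated L12. LHCB1.4, at 7038, 5152 and 13850 CPM with mock and 2017, 2440 and 1182 CPM with ABA, had a log2 fold change of -2.17 and missed the threshold (SE 0.454, adjusted p = 0.0123 with edgeR). Both genes were lower in every ABA library than in every mock library. The nearest ABA and mock libraries had 2440 and 5152 CPM for LHCB1.4, and 451 and 943 CPM for LHCB2.3. LHCB1.3 had the smallest response of the PSII antenna (29820, 22890 and 57570 CPM with mock, 21880, 20950 and 18300 CPM with ABA, log2 fold change -0.72, adjusted p = 0.139, edgeR). The groups stood just apart, with mock replicate 2 next to ABA replicate 1. LHCB1.5 was at 16590, 12250 and 35860 CPM with mock and 11810, 10850 and 10240 CPM with ABA, also just apart, with a log2 fold change of -0.79.

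Of the PSI antenna genes in L12, LHCA1 had the largest response (from 6789, 5984 and 11060 CPM to 4634, 3813 and 3542 CPM, -0.92, adjusted p = 0.0469 with edgeR) and LHCA2 the smallest (-0.72, adjusted p = 0.0777, from 5708, 4424 and 9125 CPM to 3940, 3551 and 3657 CPM). LHCA4 had 10150, 7156 and 15580 CPM with mock and 6976, 5830 and 5548 CPM with ABA. In PSI, PSAH2 (AT1G52230), part of the LHCII docking site, went from 2443, 1591 and 4389 CPM to 1025, 763 and 1010 CPM (adjusted p = 0.00665, edgeR), and PSAN from 3606, 1926 and 7594 CPM to 1304, 1105 and 1354 CPM (adjusted p = 0.00902, edgeR). In both, the ABA libraries were close together and the spread lay among the mock libraries. PSAL was at 5673, 3936 and 10870 CPM with mock and 3160, 2707 and 3163 CPM with ABA, and PSAO at 4063, 3312 and 6798 CPM and 2723, 2278 and 2462 CPM (-0.84). PSAD2 had the smallest response of PSI, -0.76, with 1422, 1356 and 2055 CPM with mock and 1084, 940.3 and 772 CPM with ABA. LHCB2.1, also called in L12, went from 3376, 1676 and 6535 CPM to 1397, 594 and 1030 CPM, and LHCB4.3 from 30.3, 22.2 and 52.9 CPM to 14.0, 9.81 and 10.6 CPM. In PSII, PSBQ1 (AT4G21280) went from 2455, 1502 and 4000 CPM to 1008, 829 and 1032 CPM (adjusted p = 0.00934, edgeR). PSBR was at 5254, 3235 and 12640 CPM with mock and 3418, 3061 and 3832 CPM with ABA, with overlapping groups and a log2 fold change of -0.79. PSBO1 was at 7506, 5595 and 14550 CPM with mock and 4862, 4236 and 4663 CPM with ABA, without overlap (-0.87). PSBS was again the least changed (1528, 1132 and 2503 CPM with mock, 1534, 1030 and 1434 CPM with ABA, log2 fold change -0.29, adjusted p = 0.482 with edgeR), and turned to 0.07 with scaling by library size only and to 0.0076 without replicate 3. Offsets for transcript length and GC content gave log2 fold changes nearer 0 in L12 for LHCB1.3 (-0.46), LHCA5 (-0.48 in place of -0.82, adjusted p = 0.0515 in place of 0.0361, edgeR), PSAE1 (-0.67), PSAE2 (-0.56), PSAG (-0.55), PSBR (-0.44) and PSBX (-0.49).

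The young-leaf response differed between replicates more than the old-leaf response. The median log2 ratio of the 43 genes between ABA and mock libraries of the same replicate number was -0.81, -0.54 and -1.78 in L12, and -1.11, -1.48 and -1.26 in L7. The low value of replicate 3 in L12 goes with mock-treated replicate 3, whose members were 0.717 above their group mean and whose deviations had the most negative correlation with transcript length (-0.564). Leaving out the 4 libraries of replicate 3 gave medians of -0.63 for the antenna, -0.61 for PSI and -0.59 for PSII in L12. In that fit 0 members were called and 19 of 43 had an unadjusted p below 0.05 (edgeR). The count of 6 was also 0 without the replicate block (38 of 43 with an unadjusted p below 0.05), 0 without the libraries of replicate 1 or 2 (33 and 41 of 43), 0 without replicate 1 or 3 of mock-treated L12 or any 1 library of ABA-treated L12 (35 to 42 of 43 with an unadjusted p below 0.05), and 15 without replicate 2 of mock-treated L12. It was 3 and 1 without replicate 1 or 3 of mock-treated L7, and 2, 3 and 2 without replicate 1, 2 or 3 of ABA-treated L7. The count of 31 became 3 without the replicate block, 3 and 0 without replicate 1 or 3, 6 and 7 without replicate 1 or 3 of mock-treated L12, 12 and 8 without replicate 2 or 3 of ABA-treated L12, 20 without replicate 3 of mock-treated L7, and 20 and 19 without replicate 1 or 2 of ABA-treated L7. In all fits with these libraries left out, between 42 and 43 of the 43 log2 fold changes were below 0 in each leaf, and PSBS was the exception where there was one.

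**Figure D3:**
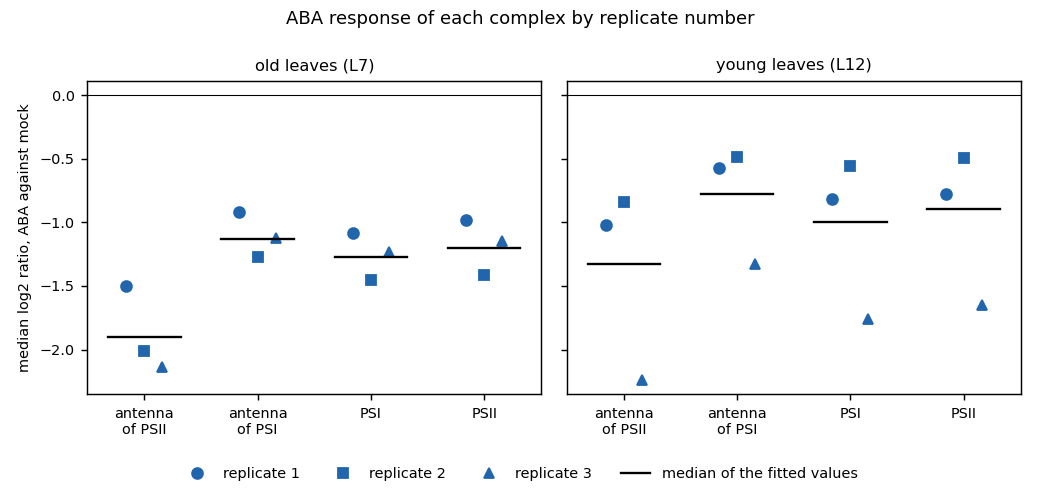
Median log2 ratio between ABA and mock libraries of the same replicate number (y axis) for the genes of each complex in old and young leaves; the black line is the median of the fitted values. In L12 replicate 3 was lowest for every complex, and for the PSII antenna the 3 values were -1.02, -0.84 and -2.24.

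**Figure D4:**
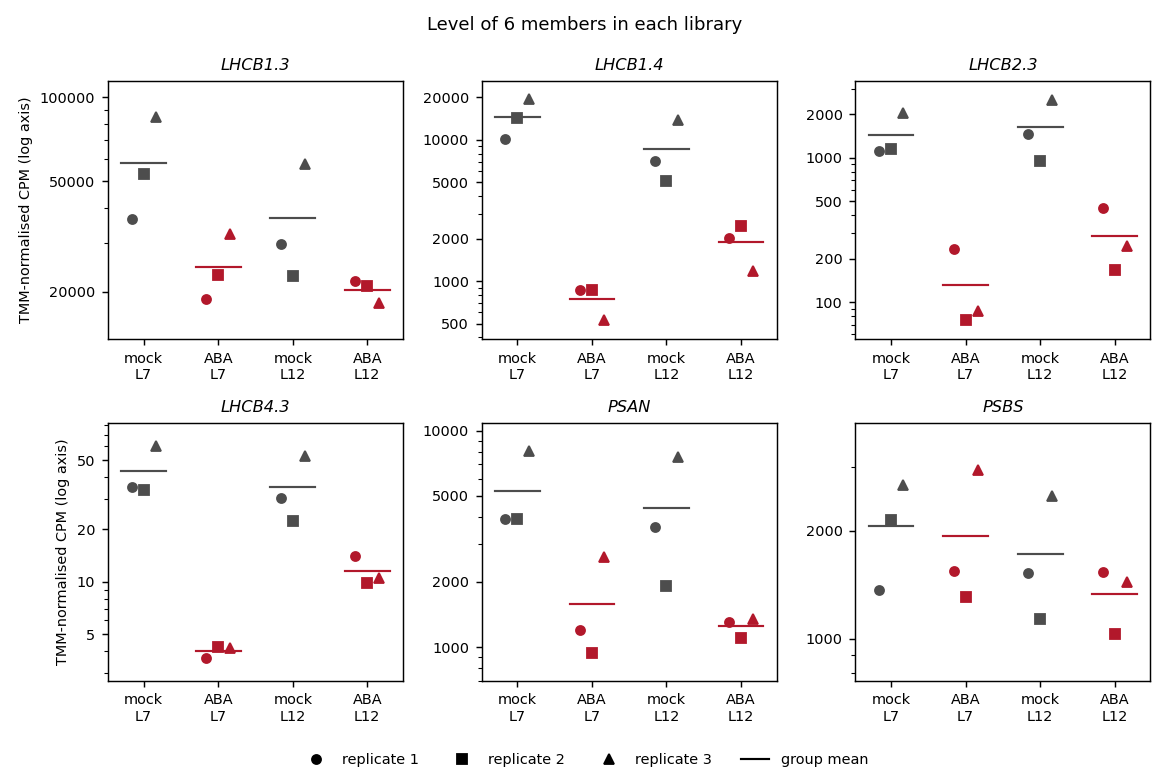
Level of 6 genes in every library as TMM-normalised CPM (y axis, log scale) by group; point shapes give the replicate and lines the group mean. LHCB4.3 was between 3.64 and 4.21 CPM in ABA-treated L7 and between 33.7 and 60.6 CPM in mock-treated L7, while the groups of PSBS overlapped in both leaves.

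Whether the ABA response differed with leaf age was tested as the difference between the responses, young minus old. The fold change was more negative in L7 for 38 of the 43 genes, and 0 of the 43 were called (edgeR), as were 0% of all genes tested. DESeq2 and limma with voom also called 0 members, and DESeq2 gave 1 member with an adjusted p below 0.05. An unadjusted p below 0.05 was found for 3 members, against 3.43% of all genes with such a p and a more negative response in L7. These were LHCB4.3 (1.83, SE 0.404, adjusted p = 0.412 with edgeR), LHCB1.4 (2.07, SE 0.61, adjusted p = 0.514) and LHCB2.1 (0.99, SE 0.429, adjusted p = 0.661). Each was more negative in L7 in 3 of 3 replicates. The median difference was 0.47 for the antenna, 0.24 for PSI and 0.19 for PSII. Without replicate 3 these were 0.88, 0.62 and 0.50, and without replicate 2 they were 0.23, -0.08 and -0.10, so the difference was not shown beyond the spread between replicates.

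The mock-treated leaves compare leaf ages without ABA. The counts of members that passed the tests here did not exceed those of all genes. In mock-treated L12, 41 of the 43 were lower than in mock-treated L7, with LHCB2.3 (0.12) and PSAF (0.16) as exceptions, and the median was -0.47. None of the 43 was called (edgeR; 13 had an unadjusted p below 0.05, against 51.8% of all genes, DESeq2 called 2 and limma with voom 1), against 8.10% of all genes called lower. With adjusted p below 0.05, 7 were lower, against 20.0% of all genes: LHCB1.5 (-1.02), LHCB2.1 (-0.93), LHCB4.2 (-0.82), PSAE2 (-0.85), PSAL (-0.82), PSBR (-1.23) and PSBW (-0.92). PSBR was at 9769, 11650 and 25740 CPM in L7 and at 5254, 3235 and 12640 CPM in L12. PSAE2 was at 1252, 1669 and 3004 CPM in L7 and 912, 623 and 1835 CPM in L12, and PSAF at 3551, 5128 and 5045 and 4514, 4899 and 5896 CPM. In none of the 43 did the groups stand apart, against 17.3% of all genes that were lower in L12 without overlap. Of the LHCA genes, LHCA2 had the lowest log2 value (-0.68, from 7474, 10160 and 12670 CPM in L7) and LHCA6 the one nearest 0 (-0.24, 169, 211 and 291 CPM in L7 and 191, 126 and 277 CPM in L12). The 7 became 0 without the replicate block, 0 without the libraries of replicate 1 or 2, 0 without replicate 3 of mock-treated L7, 0 without replicate 2 of mock-treated L12, 1 without replicate 2 of mock-treated L7 or replicate 1 of mock-treated L12, 13 without replicate 3 of mock-treated L12, and 4 and 16 without replicate 2 of ABA-treated L7 or replicate 3 of ABA-treated L12. With offsets for transcript length and GC content the medians moved from -0.55 to -0.11 for the antenna, from -0.40 to 0.10 for PSI and from -0.47 to -0.06 for PSII, and 21 of 43 members were lower. Of the 7 genes only PSBR (-0.64, adjusted p = 0.0317 with edgeR) then had an adjusted p below 0.05, and the others had LHCB1.5 -0.35, LHCB2.1 -0.69, LHCB4.2 -0.30, PSAE2 0.017, PSAL -0.29 and PSBW -0.55. Among ABA-treated leaves, which share the ABA libraries with the comparisons above, LHCB4.3 was called higher in L12 (14.0, 9.81 and 10.6 CPM against 3.64, 4.21 and 4.17 CPM in L7, log2 fold change 1.51, adjusted p = 0.00837 with edgeR), against 3.13% of all genes called higher. LHCB1.4 was also higher (1.32, adjusted p = 0.0367 with edgeR) and LHCA5 was lower (-0.74, adjusted p = 0.0284 with edgeR), against 17.8% of all genes lower at adjusted p below 0.05. With offsets for transcript length and GC content LHCA5 had -0.14 (adjusted p = 0.51, edgeR). LHCB4.3 and LHCB1.4 were thus the 2 members higher at adjusted p below 0.05, against 18.7% of all genes. Among ABA-treated leaves, too, the counts of members that passed did not exceed the shares of all genes. The call of LHCB4.3 was lost without the replicate block, without the libraries of any 1 replicate number, and without replicate 1 or 3 of mock-treated L7, replicate 1 of mock-treated L12, or any 1 library of ABA-treated L7 or L12. Its log2 fold change stayed between 1.25 and 1.75 with libraries left out, and 0 of all genes were called without the libraries of replicate 1 or of replicate 3 (7240 and 5698 had an unadjusted p below 0.05, edgeR).

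The copies of some proteins did not share the response evenly. The share of a copy in the counts of its family within a library does not depend on scaling. Its 95% interval by the normal approximation was at most 0.664 percentage points to either side, which covers counting error only. No test was made of these shares, and 3 against 3 libraries cannot give a two-sided exact permutation p below 0.1. LHCB1.4 held 10.6%, 11.3% and 9.07% of LHCB1 counts in mock-treated L7 and 2.1%, 1.98% and 0.775% in ABA-treated L7. In L12 it held 8.92%, 9.07% and 9.14% with mock and 4.13%, 5.51% and 3.05% with ABA. It was lower in every ABA library of both leaves, and its ABA share was lower in L7 than in L12 without overlap. LHCB1.3 took the larger part, with 40.0% ± 1.91 (SD, n = 3) in mock-treated and 48.6% ± 3.87 in ABA-treated L7, and 38.7% ± 1.38 and 46.4% ± 1.38 in L12, again without overlap. LHCB2.3 went from 11.8% ± 1.86 to 6.73% ± 2.93 of LHCB2 in L7 and from 19.8% ± 1.48 to 12.1% ± 1.46 in L12. LHCB4.3 was a small part of LHCB4, 0.248% ± 0.0331 in mock-treated and 0.0776% ± 0.0236 in ABA-treated L7, and 0.316% ± 0.0155 and 0.26% ± 0.0332 in L12. Each of these 4 copies differed without overlap between mock and ABA in both leaves, though for LHCB4.3 in L12 the nearest libraries (0.299% and 0.294%) were within counting error. The shares of all other copies of LHCB1, LHCB2 and LHCB4 overlapped between mock and ABA in L7. Shares within a family are tied to each other, since a rise of any copy lowers the share of the rest.

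Some pairs of PSI and PSII genes also differed in proportion between mock and ABA. PSAE1 held 75.9% of PSAE counts in all 3 libraries of mock-treated L7 and 74.9% ± 1.59 with ABA. PSAD1 held 63.9% ± 2.87 and 66.0% ± 2.37 in L7, with overlap. PSBO1 was lower with ABA in L7 (82.1% ± 0.843 and 79.3% ± 1.21, no overlap) and not in L12 (79.2% ± 1.22 and 79.5% ± 1.75). In L12, PSAH2 went from 59.6% ± 1.82 to 54.1% ± 2.12 of PSAH and PSBQ1 from 37.2% ± 4.38 to 28.8% ± 0.903 of PSBQ, both without overlap, while in L7 both overlapped. PSBQ1 was highest in replicate 3 of both L7 groups (30.8%, 33.8% and 45.2% with mock, 27.1%, 28.2% and 42.9% with ABA). Its transcript has 994 bases against 1155 for PSBQ2, and PSAH2 has 702 against 1300 for PSAH1. Whether transcript length had a part in these shares was not tested. Leaf age also went with the proportions in mock-treated leaves. LHCB1.1 and LHCB1.2 held 8.26% ± 0.878 and 12.2% ± 0.729 of LHCB1 in L7 and 12.4% ± 0.597 and 17.7% ± 1.4 in L12, LHCB1.5 held 29.2% ± 0.996 in L7 and 22.1% ± 1.4 in L12, and none of these overlapped. When the copies of a protein were summed before the fit, 6 of 30 were called in L7 (LHCB2, LHCB3, LHCB4, LHCB5, LHCB6 and PSAN) and 2 of 30 in L12 (LHCB2 and PSAN). The share of all genes called in that fit is not given here. In the main fit, with copies kept apart, 2.00% of all genes were called lower in L7 and 3.08% in L12.

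**Figure D5:**
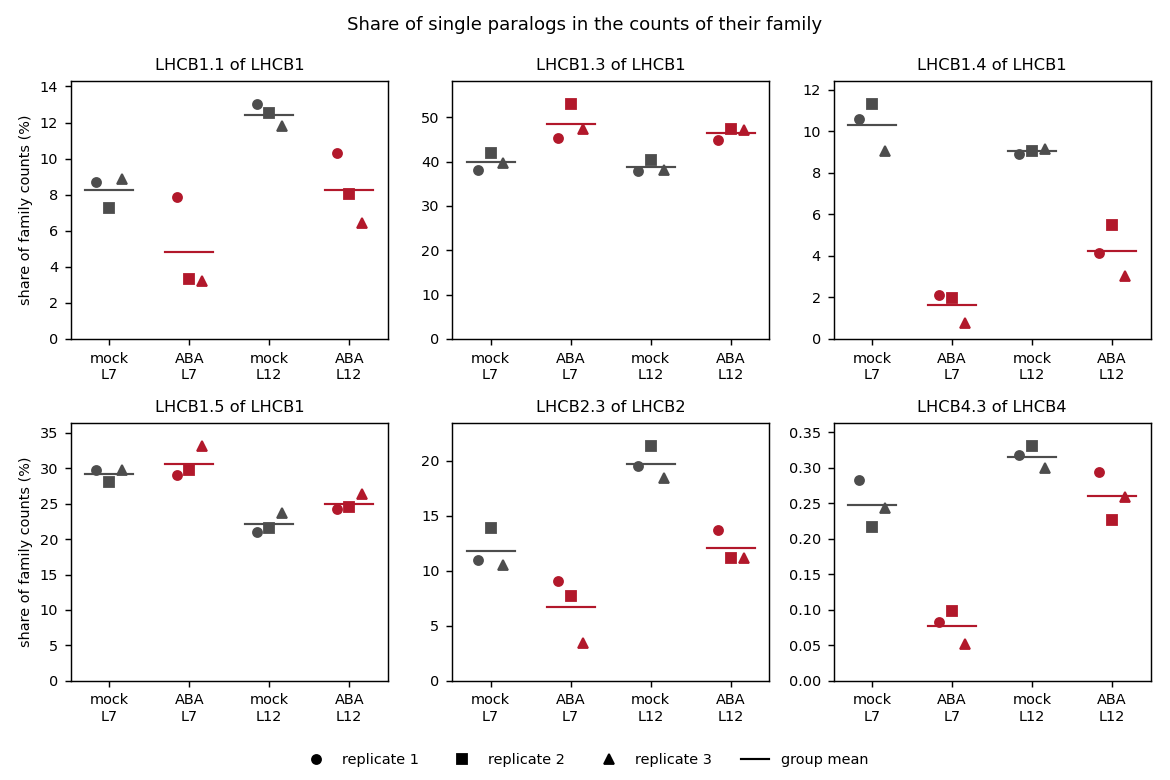
Share of single copies in the counts of their gene family within each library (y axis, percent, from 0) by group; points are libraries and lines group means. LHCB1.4 held a mean of 10.3% of LHCB1 with mock and 1.62% with ABA in L7, and 9.04% and 4.23% in L12, and LHCB1.3 was higher with ABA in both.

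The 250 bases before the annotated gene start are shown for LHCB1.4 and LHCB2.3, 2 of the most responsive genes, and for PSBS, the least responsive. All 3 lie on the plus strand, and the sequence is from TAIR10.1, 5′ to 3′. Capitals mark every match on either strand to ACGTG, the core of the ABA response element (reverse complement CACGT), and to CCAAT, the box bound by NF-Y factors (reverse complement ATTGG).
LHCB1.4 (chr2:14524357-14524606): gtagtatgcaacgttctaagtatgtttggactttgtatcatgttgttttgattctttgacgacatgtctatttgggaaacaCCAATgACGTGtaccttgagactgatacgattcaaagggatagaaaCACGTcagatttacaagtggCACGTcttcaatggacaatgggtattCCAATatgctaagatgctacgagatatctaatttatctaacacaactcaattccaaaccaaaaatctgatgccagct
LHCB2.3 (chr3:10255656-10255905): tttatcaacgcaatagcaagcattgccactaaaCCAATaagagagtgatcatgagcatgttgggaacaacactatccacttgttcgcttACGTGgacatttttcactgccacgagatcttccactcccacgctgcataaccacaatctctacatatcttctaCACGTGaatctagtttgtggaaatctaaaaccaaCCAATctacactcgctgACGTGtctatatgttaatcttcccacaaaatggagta
PSBS (chr1:16869971-16870220): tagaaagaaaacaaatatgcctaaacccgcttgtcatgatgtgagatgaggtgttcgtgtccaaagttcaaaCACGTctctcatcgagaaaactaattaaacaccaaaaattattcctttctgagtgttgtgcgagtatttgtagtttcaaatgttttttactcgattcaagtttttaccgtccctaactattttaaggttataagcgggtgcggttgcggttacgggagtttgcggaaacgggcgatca
LHCB1.4 holds 3 matches to ACGTG and 2 to CCAAT, LHCB2.3 holds 4 and 2, of which 2 ACGTG matches lie on both strands of 1 G-box (CACGTG), and PSBS holds 1 and 0. Over the 43 genes, ACGTG was found in 41.9% of the windows against 21.7% of the windows of 31903 genes, and the G-box, which contains it, in 20.9% against 5.91%. ACGTG was found in 8 of 20 antenna genes, 4 of 12 PSI genes and 6 of 11 PSII genes. CCAAT was found in 90.0% of the antenna genes, 58.3% of the PSI genes and 18.2% of the PSII genes, against 45.2% of all windows. LHCB4.3, one of the 3 strongest responses in L7, holds 0 matches to ACGTG. The same holds for LHCB2.1, LHCB2.2, LHCB3, LHCB4.2, LHCB5 and PSAN, which were also called in L7. PSBQ2, with a smaller log2 fold change in L7 (-1.03), holds more matches to ACGTG than any of the 3 genes shown. The 3 genes shown therefore do not stand for a relation between the number of matches and the response. These matches are a description of letters, and no test was made.

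Other genes of photosynthesis were grouped in lists by function. Of all genes tested, 6.63% in L7 and 9.26% in L12 were lower with an adjusted p below 0.05, and 2.00% and 3.08% were called lower. Of 12 nuclear genes of linear electron transport and ATP synthase, 3 had an adjusted p below 0.05 and a lower level in ABA-treated L7 and 4 in L12, with medians of -0.77 and -0.50, and the only one called was ATPD in L12 (-1.5), a subunit of the ATP synthase. PETE2, the major plastocyanin, went from 3615, 5225 and 7351 CPM to 1940, 1777 and 3863 CPM in L7, with overlap (-1.15, adjusted p = 0.0252, edgeR). Of 14 genes of chlorophyll synthesis, 3 in L7 and 5 in L12 were lower with an adjusted p below 0.05, with medians of -0.19 and -0.36. GUN4, an activator of magnesium chelatase, was called lower in both leaves (-1.37 and -1.31), and CHLI1, a subunit of that enzyme, in L12 (-1.01). CRD1, the most abundant of the list, had -0.74 and -0.55 and did not pass the test. None of the 7 genes for insertion of antenna proteins and for their kinases and phosphatase had an adjusted p below 0.05 in either leaf (edgeR), and their medians were -0.09 and 0.05. Of the LHC-like stress proteins 5 of 6 were tested, and OHP1 (-0.90) and OHP2 (-0.99) had an adjusted p below 0.05 in L7. Of 6 transcription regulators 5 were tested. GLK1, an activator of antenna genes, was at 581, 341 and 1065 CPM with mock and 228, 178 and 614 CPM with ABA in L7 (-1, adjusted p = 0.0426, edgeR), with overlapping groups, and had -0.72 in L12 (adjusted p = 0.0995).

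The spray itself was seen in known ABA-induced genes. RAB18, a dehydrin, went from 95.2, 273 and 316 CPM to 1388, 2835 and 2474 CPM in L7 (log2 fold change 3.36, adjusted p = 0.000863, edgeR) and from 35.0, 82.8 and 75.2 CPM to 1527, 1352 and 1556 CPM in L12 (4.68, adjusted p = 0.000214). Of the 8 genes of this list, 3 were called higher in L7 and 6 in L12. Of all genes tested, 537 were called in L7, 366 of them lower, and 831 in L12, 563 of them lower. NCED3 of this list went the other way in both leaves (-0.88 and -0.96) and did not pass the test. Of 8 genes of senescence and chlorophyll loss, SAG12 was too low to test and none of the other 7 had an adjusted p below 0.05 in L7, with a median of 0.11. In L12 ORE1 (4.11) and NAP (2.55), transcription factors of senescence, had an adjusted p below 0.05, and the median was 0.78. ORE1 was low, with 9, 7 and 3 counts in mock-treated L12 and 21, 256 and 173 in ABA-treated L12, so its fold is uncertain. NAP had 41, 129 and 23 counts with mock and 190, 593 and 357 with ABA.

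Markers of leaf cell types also moved, and their part in the response of the photosystem genes was not tested. The 6 mesophyll genes that are not members (small subunits of Rubisco, Rubisco activase, carbonic anhydrase and GAPA) were all lower with ABA in both leaves. Of these, 3 were called in L7 and 1 in L12, against 2.00% and 3.08% of all genes called lower. The medians of the 6 genes were -1.39 and -0.87. Their summed level was 20793 to 32404 CPM in mock-treated and 10671 to 18228 CPM in ABA-treated L7, and 29067 to 46101 and 16607 to 21806 CPM in L12. The 5 guard cell genes summed to 48.8 to 119 CPM with mock and 10.6 to 13.9 CPM with ABA in L7. In L12 they summed to 86.1 to 102 and 32.7 to 42.7 CPM. GC1, called lower in L7 (-4.33), had the most counts of the 5 in mock-treated L7 (395, 951 and 849). It had 67, 58 and 43 counts in ABA-treated L7, so the L7 sum mostly follows this gene. Log2 fold changes of the 5 lay between -4.33 and -0.0387 in L7 (median -1.44). In L12 they lay between -2.14 and 0.0193 (median -1.26). The sum was not repeated without GC1. The 5 epidermis genes summed to 165 to 305 and 361 to 480 CPM in L7 and to 257 to 398 and 441 to 535 CPM in L12, with CER1, an enzyme of wax synthesis, called higher in both. Without CER1 the other 4 summed to 87.3 to 181 CPM with mock and 137 to 191 CPM with ABA in L7, and to 152 to 317 and 193 to 277 CPM in L12, with overlap in both. PDF1 of this list, with 0, 20 and 1 counts in mock-treated and 2, 5 and 0 in ABA-treated L7, had a fitted log2 value of -2.37 that did not pass the test. No defining marker of these 3 lists was at 0 in all libraries of a group. The 4 phloem genes had sums that overlapped between mock and ABA in both leaves (454 to 568 and 397 to 621 CPM in L7).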

How the data were processed

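Polyadenylated RNA of 12 leaf libraries (4 groups of 3) was sequenced from strand-marking libraries, and the values used are whole-number counts per gene, deposited by the authors after read trimming, alignment to TAIR10 and counting of reads that mapped to 1 place. The submitters' processing notes name CASAVA 1.8.2, cutadapt 1.5, TopHat2 2.0.10 and HTSeq 0.6.1. The 5 summary lines of each table (5.97% to 10.3% of its total) were left out. Of 32678 genes, the 18291 whose mean reached 10 counts were fitted with edgeR 4.0.16 in R 4.3.3, with TMM factors and a block for replicate beside the 4 groups, since the study's model holds the replicate. Benjamini-Hochberg adjustment ran over all genes tested. Calls needed a log2 fold change beyond 1 at an adjusted p under 0.01.

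Deviations of samples with the same replicate number correlated between -0.0234 and 0.65 (median 0.361, 16 of 18 pairs over 0.1), against a median of -0.217 for 36 other pairs, so the replicate numbers did not pair the samples in every case and results without the block are given. The experiment was repeated 3 times, but the labels do not tie replicate numbers to repeats, so p-values measure the spread between these samples, which may in part be technical. Alternatives used DESeq2 1.42.0, limma 3.58.1, other scalings and filters, transcript length and GC offsets, summed paralogs and left-out libraries. In simulated counts for the old-leaf comparison (18291 genes), 39 of 100 genes changed by 1.5 and 72 of 100 changed by 2 on the log2 scale were called, and 0 unchanged genes. The simulation gave every gene the same spread and held no effect of replicate or transcript length. It therefore does not measure how often calls are false in the real libraries. Names, lengths, promoters and coding ends came from RefSeq TAIR10.1. Members and lists were chosen with earlier results of these data known. Values in every library are given for the 2 most abundant members of each complex, those with the largest and smallest response, and those called.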

Additional observations from a re-analysis of the deposited data

How the results depend on the processing

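Direction was the stable feature: 42 or 43 of the 43 genes (30 of 30 with paralogs summed) were lower after ABA in each leaf under every alternative run, PSBS being the exception. Counts of called genes were not stable. In L7 the 12 called became 39 with DESeq2, 34 with limma and Storey q-values, 39 with an adjusted p limit of 0.05, 1 with only the groups compared and 6 with paralogs summed. In L12 the 6 became 21 with DESeq2, 11 with limma and voom, 17 with Storey q-values, 22 with the limit of 0.05, 3 with RLE factors, 0 with only the groups compared and 2 with paralogs summed. Calls over all genes moved as well: the 366 called lower in L7 became 1023 with DESeq2, 733 with Storey q-values, 37 without the replicate block, 31 with only the groups compared and 0 without replicate 3, and the 563 in L12 became 1263, 1077, 72, 227 and 0 in the same order (without replicate 3, 3793 and 3152 genes had an unadjusted p below 0.05, edgeR). Without the replicate block, 2 were called in L7, 0 in L12 and 0 between ABA-treated leaves, and 6, 3, 0 and 0 had an adjusted p below 0.05 in L7, in L12, between mock-treated and between ABA-treated leaves. With left-out libraries, 0 to 30 were called in L7 and 0 to 15 in L12, and 6 to 41 and 0 to 40 had an adjusted p below 0.05. With only the groups compared, 9 had an adjusted p below 0.05 in L12.

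Between mock-treated leaves the 0 called became 2 with DESeq2, 1 with limma and voom, 2 with Storey q-values and 2 with the limit of 0.05, and 0 to 2 with left-out libraries. The 7 with an adjusted p below 0.05 became 13 with DESeq2, 21 with Storey q-values, 1 with only the groups compared, 2 with length and GC offsets, 3 with paralogs summed and 0 to 16 with left-out libraries. Between ABA-treated leaves the 1 called became 2 with DESeq2, Storey q-values or the limit of 0.05, 3 with only the groups compared, 0 with paralogs summed and 0 to 1 with left-out libraries. The 3 with an adjusted p below 0.05 became 11 with Storey q-values, 6 with library size only, 8 with length and GC offsets, 1 with paralogs summed and 0 to 4 with left-out libraries. For the difference between responses, DESeq2 gave 1 member with an adjusted p below 0.05.

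The L7 medians of antenna, PSI and PSII were -1.02, -0.80 and -0.73 with library size only and -1.26, -0.94 and -0.94 with length and GC offsets, and that of the antenna was -1.29 with paralogs summed. Between mock-treated leaves the offsets gave -0.11 for the antenna and 0.10 for PSI, and 0.017 for PSAE2. PSBS was 0.31 in L7 and 0.073 in L12 with library size only, and with left-out libraries between -0.39 and 0.16 in L7 and between -0.58 and 0.0076 in L12. The causes of these shifts were not tested. With 3 libraries a group, reads that map to several copies left out, and spread among libraries that went with transcript length, single calls are less firm than the common direction.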
